A study of Mus musculus with 6 samples.

Results

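The checkpoint ligands described here are surface proteins through which tumour cells engage receptors on immune cells: Vtcn1, Cd274, Pdcd1lg2, Cd276, Icosl, Cd80, Cd86, Pvr, Cd47 and Cd200. They were taken as the 10 genes of this class from the 22180 genes tested, by gene symbol, and all 10 were measured, each by 1 probe set bearing only that symbol. The study measured gene expression on 6 arrays of untreated mouse cells that carry NeuNDL, a constitutively active variant of the receptor tyrosine kinase Neu, also called ErbB2. There were 3 arrays of SLK-knockout cells and 3 of SLK wild-type cells, grown in serum-containing medium with a mammary epithelial supplement. SLK belongs to the Ste20-like kinases and acts in the turnover of focal adhesions and in cell movement. Both groups carry NeuNDL, and neither was set against untransformed cells. Passages 9, 19 and 29 are named for the series as a whole and for no particular array, and the labels give no clone, strain or way of making the knockout, so the p-values measure the spread between these samples, which may be technical. The set was chosen by the known difference of Vtcn1 between these same arrays. The other 9 were added as B7 family members or other ligands of this class, also with earlier results of these data known.

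The B7 family are paired immunoglobulin-type surface proteins, several of which T cells read through CD28-like receptors. CD80 and CD86 bind CD28, which activates T cells, and CTLA-4, which restrains them. PD-L1 and PD-L2, encoded by Cd274 and Pdcd1lg2, bind the inhibitory receptor PD-1, and ICOS ligand binds ICOS. B7-H4, encoded by Vtcn1, and B7-H3, encoded by Cd276, restrain T cells in many settings, and B7-H4 is known for its expression on breast and ovarian carcinomas. Outside the B7 family, PVR (CD155) is read by TIGIT, CD96 and CD226 on T and NK cells, CD47 gives macrophages a "don't eat me" signal through SIRP-alpha, and CD200 restrains myeloid cells through its receptor.

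All values are the authors' deposited log2 values, which have no absolute zero, and each log2 fold change is the knockout mean minus the wild-type mean. Over all probe sets the median of an array was 3.93 to 3.97, and Pearson's r between arrays was 0.990 to 0.994. The number of arrays limits the precision. The targeted gene Slk averaged 7.18 ± 0.03 in knockout cells and 8.28 ± 0.07 in wild-type cells (SD, n = 3 each), a log2 fold change of -1.10. Probe sets differ in how brightly they report a given amount of RNA, so levels are not ranked between genes. A gene is called dim below only where its mean lay under 4.39, the median of the genes tested, and no detection calls were available.

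Vtcn1 was the member with a clear difference, and its signal was 1.64-fold lower in knockout cells. Probe set 17400998 read 6.33, 6.46 and 6.29 on the knockout arrays, against 7.15, 7.12 and 6.94 on the wild-type arrays. All 3 knockout arrays lay below all 3 wild-type arrays, and the gap between the groups, 0.49, was wider than the range within knockout (0.17) or wild-type cells (0.21). The mean was 6.36 ± 0.09 in knockout cells and 7.07 ± 0.11 in wild-type cells (SD, n = 3 each), with a log2 fold change of -0.71 (95% interval -0.90 to -0.53). Vtcn1 was not dim in either genotype: between 75.7% and 77.0% of probe sets read lower than it in knockout cells, and between 81.0% and 82.5% in wild-type cells. These are the values that led to the choice of the set, so they are given as a description. In the fit over all genes Vtcn1 had an adjusted p of 0.025 (limma, Benjamini-Hochberg), the 49th smallest p of 22180, and the 5th largest fall of the 25 genes called lower. The lowest adjusted p among genes not called was 0.051 and the highest among those called was 0.049. Vtcn1 lost its call at the threshold of 0.05 whichever single array was left out, while the log2 fold change stayed between -0.78 and -0.67. The adjusted p was then 0.13, 0.075 and 0.11 without knockout 1, 2 and 3, and 0.11, 0.12 and 0.054 without wild-type 1, 2 and 3.

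**Figure D1:**
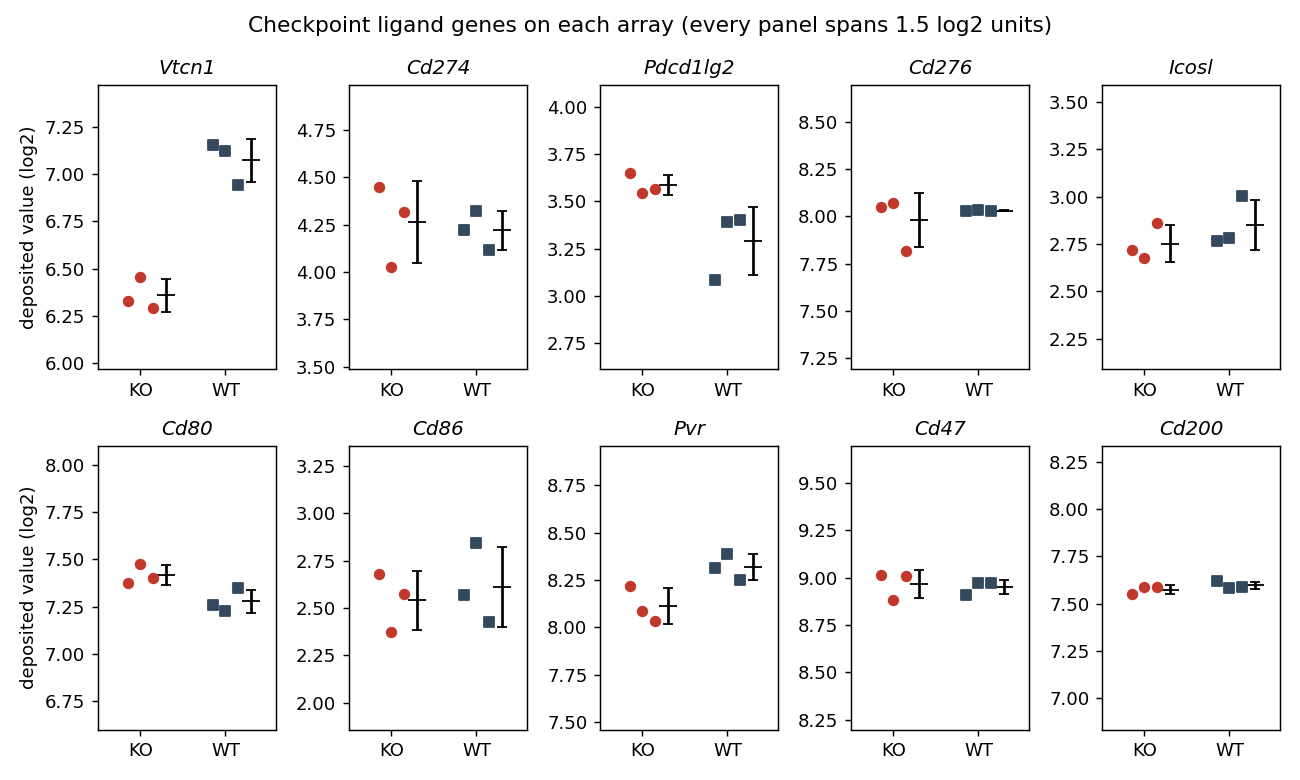
Deposited log2 value (vertical axis) of each checkpoint ligand gene on the knockout (KO, red circles) and wild-type (WT, dark squares) arrays, replicates 1 to 3 from left to right in each group, with the mean and SD (n = 3) as a black bar beside them. All panels span the same range of log2 units but start at different levels. Vtcn1 shows the gap between 6.46, its highest knockout value, and 6.94, its lowest wild-type value, while the groups overlap for Cd274, Cd276, Icosl, Cd86, Cd47 and Cd200.

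The sequence upstream of Vtcn1 is shown because it is the member that passed the threshold. It covers the 250 bases before the annotated gene start (RefSeq, GRCm38.p6, chr3:100825209-100825458, plus strand).
Vtcn1: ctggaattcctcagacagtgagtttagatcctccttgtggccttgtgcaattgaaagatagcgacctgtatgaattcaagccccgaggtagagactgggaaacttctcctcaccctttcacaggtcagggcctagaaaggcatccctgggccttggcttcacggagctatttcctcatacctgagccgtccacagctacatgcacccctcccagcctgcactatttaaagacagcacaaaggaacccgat
It holds 5 CpG dinucleotides, near the median of 6 over 27025 promoters of this length, and 51.6% G or C. None of 6 motifs searched on both strands was found in it: TTCNNNGAA (the GAS form, present in 7.18% of all promoters), GAAANNGAA (the ISRE form, 7.16%), TATAAA (13.0%), CCAAT (34.5%), TGANTCA (the AP-1 form, 6.87%) and the NF-kappa-B consensus (7.01%). That says only that these letters are not in this window. On either side of Vtcn1 on chromosome 3, the nearest measured genes are Man1a2, a mannosidase gene, and Trim45. Both were looked up after the Vtcn1 values were known. Man1a2 averaged 8.62 ± 0.03 in knockout cells and 8.67 ± 0.01 in wild-type cells (SD, n = 3 each), and Trim45 had a log2 fold change of -0.0011 (SE 0.08), so neither neighbour showed the difference seen for Vtcn1 (limma, adjusted p = 0.76 for Man1a2 and 0.998 for Trim45).

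Of the other 9 members none passed the threshold over all genes, where 97 of 22180 genes, or 0.437%, were called. With Vtcn1 that makes 1 of 10, and since Vtcn1 was chosen for its difference, nothing is read from that share. The groups did not overlap for 4 of the 10, namely Vtcn1 and Pvr (lower in knockout cells) and Pdcd1lg2 and Cd80 (higher). Of all genes tested 16.9% had groups that did not overlap, 8.79% higher and 8.1% lower in knockout cells, and nothing is read from the members' count. Without Vtcn1, 3 of 9 had groups that did not overlap, and 3 of 9 had an unadjusted p under 0.05, against 10.2% of all genes. These 9 were also proposed with earlier results of these data known, so nothing is read from these counts either. The median log2 fold change of these 9 was -0.02, beside 0.0038 over all genes.

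The PD-1 ligands are encoded by neighbouring genes on chromosome 19, and both were dim on these arrays. Cd274 (PD-L1) had 4.45, 4.02 and 4.32 on the knockout arrays, against 4.22, 4.32 and 4.12 on the wild-type arrays. The groups overlapped, with knockout 1 highest and knockout 2 lowest of all 6, and the mean of each genotype was below 4.39. Its log2 fold change was 0.04 (95% interval -0.24 to 0.33, limma adjusted p = 0.93). Pdcd1lg2 (PD-L2) had 3.65, 3.54 and 3.57 on the knockout arrays, against 3.08, 3.39 and 3.40 on the wild-type arrays. Every knockout array was above every wild-type array by at least 0.15, and wild-type 1 stood lowest. The mean was 3.59 ± 0.05 in knockout cells and 3.29 ± 0.18 in wild-type cells (SD, n = 3 each), a log2 fold change of 0.30 (95% interval 0.07 to 0.52) that did not pass over all genes (limma, adjusted p = 0.36). Without wild-type 1 the log2 fold change was 0.19 (adjusted p = 0.50).

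The sequences upstream of both genes are set out because the genes are adjacent and inducible by inflammatory signals in many cell types. Each covers the 250 bases before the gene start on the plus strand of GRCm38.p6 (RefSeq), at chr19:29367188-29367437 for Cd274 and chr19:29410669-29410918 for Pdcd1lg2, and capitals mark motif matches.
Cd274: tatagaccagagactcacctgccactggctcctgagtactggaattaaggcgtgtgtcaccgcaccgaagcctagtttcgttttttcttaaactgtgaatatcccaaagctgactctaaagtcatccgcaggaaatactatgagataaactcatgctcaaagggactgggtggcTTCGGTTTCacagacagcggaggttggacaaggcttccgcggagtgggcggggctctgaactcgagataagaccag
Pdcd1lg2: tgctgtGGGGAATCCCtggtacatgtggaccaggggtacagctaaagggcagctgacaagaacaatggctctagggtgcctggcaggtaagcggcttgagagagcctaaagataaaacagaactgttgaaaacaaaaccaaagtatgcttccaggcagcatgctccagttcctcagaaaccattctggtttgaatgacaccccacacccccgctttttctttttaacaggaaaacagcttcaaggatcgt
Cd274 held 11 CpG dinucleotides and, of the 6 motifs, 1 match to GAAANNGAA on the minus strand, from 76 to 68 bases before the start. Pdcd1lg2 held 3 CpG dinucleotides and 1 match to the NF-kappa-B consensus, GGGGAATCCC, which reads as a match on both strands, from 244 to 235 bases before the start. A match describes the letters and not a bound site.

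CD80 and CD86 share their receptors. On these arrays Cd86 was dim and Cd80 was not. Cd80 read 7.38, 7.47 and 7.40 on the knockout arrays, against 7.26, 7.23 and 7.35 on the wild-type arrays. Knockout arrays were all above wild-type arrays, but knockout 1 exceeded wild-type 3 by only 0.03. The mean was 7.42 ± 0.05 in knockout cells and 7.28 ± 0.06 in wild-type cells (SD, n = 3 each), a 1.10-fold difference (log2 0.14, 95% interval 0.0033 to 0.28) that did not pass over all genes (limma, adjusted p = 0.48). Cd80 exceeded at least 83.1% of all probe sets on every array. Cd86 had 2.68, 2.37 and 2.57 on the knockout arrays and 2.57, 2.84 and 2.43 on the wild-type arrays, which exceeded at most 26.5% of probe sets on any of them. Its groups overlapped, with a log2 fold change of -0.07 (95% interval -0.37 to 0.23, limma adjusted p = 0.89). CD80 and CD86 are best known from antigen-presenting cells, and the leukocyte markers are given below. The 250 bases before the Cd80 start (RefSeq, GRCm38.p6, chr16:38458683-38458932, plus strand) are shown because its signal was well above the median gene while that of Cd86 was not. No sequence is shown for Cd86.
Cd80: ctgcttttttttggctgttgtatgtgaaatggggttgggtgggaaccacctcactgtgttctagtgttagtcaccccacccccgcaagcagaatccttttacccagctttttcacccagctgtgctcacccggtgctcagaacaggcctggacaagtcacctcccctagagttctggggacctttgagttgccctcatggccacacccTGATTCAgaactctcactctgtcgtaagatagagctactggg
The capitals mark a match to TGANTCA, the AP-1 form, from 42 to 36 bases before the start, and the window held 3 CpG dinucleotides.

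Cd276 (B7-H3) and Icosl completed the B7 family members. Cd276 read 8.05, 8.07 and 7.82 on the knockout arrays, against 8.03, 8.03 and 8.03 on the wild-type arrays. The wild-type arrays lay within 0.0052 of each other, and knockout 3 alone stood apart, below all others. The log2 fold change was -0.05 (95% interval -0.24 to 0.14, limma adjusted p = 0.88), and without knockout 3 it was 0.03. Icosl was dim, with 2.72, 2.68 and 2.86 on the knockout arrays and 2.77, 2.78 and 3.003 on the wild-type arrays, and its groups overlapped (log2 -0.10, 95% interval -0.31 to 0.11, limma adjusted p = 0.76). In the 250 bases before the start the promoter of Cd276 held 29 CpG dinucleotides and that of Icosl 23, above the upper quartile of 16 over all promoters. Both held matches to CCAAT. That of Icosl also held a match to the NF-kappa-B consensus on the minus strand, from 111 to 102 bases before the start.

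**Figure D2:**
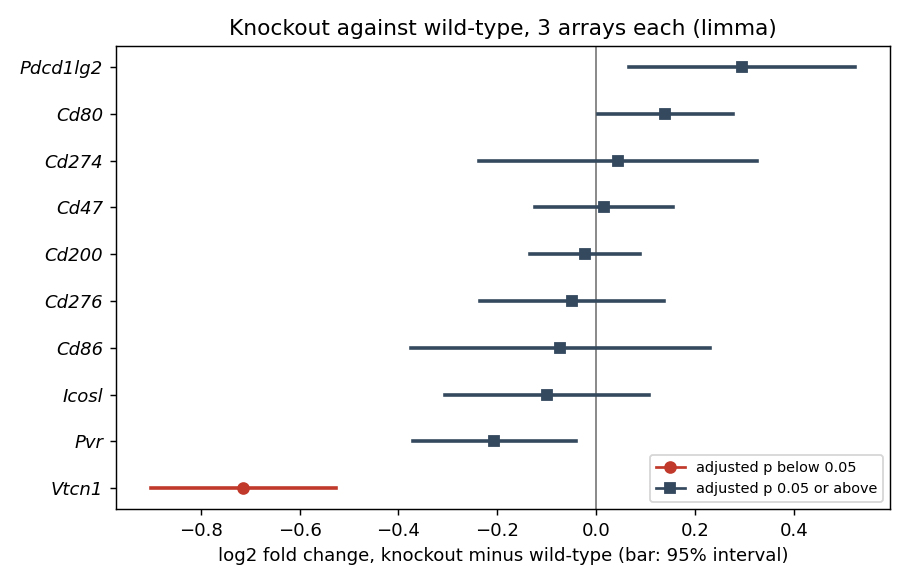
Log2 fold change, knockout minus wild-type (horizontal axis), of each checkpoint ligand gene, with its 95% interval from the limma fit over all genes as a bar (3 arrays in each group). Red circles mark an adjusted p below 0.05 and dark squares the others. The interval of Vtcn1, -0.90 to -0.53, lies below those of the other members, while those of Cd274, Cd47, Cd200, Cd276, Cd86 and Icosl include 0.

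Among the ligands outside the B7 family, Pvr was the one whose groups did not overlap. It had 8.22, 8.08 and 8.03 on the knockout arrays, against 8.31, 8.39 and 8.25 on the wild-type arrays. Knockout 1 came within 0.03 of wild-type 3. The mean was 8.11 ± 0.10 in knockout cells and 8.32 ± 0.07 in wild-type cells (SD, n = 3 each), 1.15-fold lower in knockout cells (log2 -0.21, 95% interval -0.37 to -0.04), without passing over all genes (limma, adjusted p = 0.38). Cd47 read 9.01, 8.88 and 9.01 on the knockout arrays and 8.91, 8.97 and 8.97 on the wild-type arrays. It overlapped between the groups and exceeded at least 94.2% of probe sets on every array. Its log2 fold change was 0.02, and the 95% interval of -0.12 to 0.15 bounds a change in either direction (limma, adjusted p = 0.95). Cd200 gave 7.55, 7.59 and 7.59 on the knockout arrays and 7.62, 7.59 and 7.59 on the wild-type arrays, with a log2 fold change of -0.02 (95% interval -0.13 to 0.09, limma adjusted p = 0.91). The deposited Cd200 value was identical on 3 arrays, knockout 2 and 3 and wild-type 3, which was true of 72 of 41345 probe sets (0.174%). What produced the repeats was not tested.

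The receptors of these ligands were compared from a list of 17 genes, all measured. None passed over all genes, 8 had a higher mean and 9 a lower mean in knockout cells, and the median log2 fold change was -0.0045. Tigit, the inhibitory receptor for PVR on T and NK cells, stood furthest from 0. It read 6.55, 6.30 and 6.54 on the knockout arrays, against 6.98, 6.99 and 6.90 on the wild-type arrays. The groups did not overlap, and the log2 fold change was -0.50 (SE 0.08, limma adjusted p = 0.077). Tigit passed the threshold without the dimmest 30% of genes (adjusted p = 0.037) and with an intensity trend in the variance (0.0029). With any 1 array left out it did not pass (limma, adjusted p 0.12 to 0.27). Ptprc, the pan-leukocyte gene CD45, was dim beside it, at 2.17 in knockout cells and 2.22 in wild-type cells. Of the rest of the list the smallest p belonged to Icos (log2 0.14, limma adjusted p = 0.49) and Sirpa, the CD47 receptor gene (-0.21, limma adjusted p = 0.53). In all, 12 of the 17 receptors were dim, and Tigit was the only 1 whose groups did not overlap (5.88%, against 16.9% of all genes).

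Other ligands with immune receptors were taken from a list of 43 symbols, older names among them, of which 34 were measured. Of these 1 rose and none fell, against 0.437% called among all genes, and the median log2 fold change was 0.05. The groups did not overlap for 6 of the 34 higher and 2 lower, or 23.5%, against 16.9% of all genes. The gene that rose was Ceacam1, an adhesion molecule that also engages the receptor TIM-3. It read 6.44, 6.40 and 6.43 on the knockout arrays, against 5.04, 4.70 and 4.84 on the wild-type arrays, 2.96-fold higher in knockout cells (limma, adjusted p = 0.0026). Ceacam1 stayed past the threshold without any 1 array (adjusted p 0.0093 to 0.032). Vtcn1 was thus lower, and Ceacam1 higher, on every knockout array. The next smallest p-values in the list were those of Cd40, a costimulatory receptor gene, with a log2 fold change of 0.34 (SE 0.08, limma adjusted p = 0.21), and Cd52 with -0.30 (SE 0.09, limma adjusted p = 0.34). Both were dim, and neither passed.

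For regulators of PD-L1 and CD47, from interferon signalling to protein turnover, the differences were small. None of 27 measured genes passed over all genes, and their log2 fold changes lay between -0.15 and 0.17 with a median of -0.0051. The groups did not overlap for 4 regulators higher and 7 lower, or 40.7% of the list. Among all genes the share was 16.9%, with 8.79% higher and 8.1% lower. The smallest p-values were those of Stat3 (log2 -0.15), of Qpctl, whose enzyme modifies the end of CD47 that SIRP-alpha binds (-0.12), and of Myc (-0.13), with limma adjusted p of 0.32, 0.47 and 0.49. Stat3 passed with an intensity trend (0.032) but not with any 1 array left out (limma, adjusted p 0.45 to 0.57). In the list of soluble immune suppression, none of 20 measured genes passed over all genes. The groups did not overlap for 3 of them higher and 2 lower, or 25%, against 16.9% of all genes. Entpd1, which encodes the ATP-degrading enzyme CD39, was nearest to the threshold. It read 3.71, 3.62 and 3.58 on the knockout arrays, against 3.23, 3.28 and 3.22 on the wild-type arrays (log2 0.39, SE 0.06, limma adjusted p = 0.052). All knockout arrays were above all wild-type arrays, and the gene was dim. It passed without the dimmest 30% of genes (adjusted p = 0.020) and with array weights (0.049). It did not pass with an intensity trend (limma, adjusted p = 0.084) or with any 1 array left out (0.12 to 0.20). Ptgs2, the prostaglandin synthase COX-2, averaged 9.75 ± 0.07 in knockout cells and 10.08 ± 0.01 in wild-type cells (SD, n = 3 each; log2 -0.32, limma adjusted p = 0.083). Ptgs2 passed without the dimmest 30% of genes (0.036) and with an intensity trend (0.00058). With any 1 array left out it did not pass (limma, adjusted p 0.16 to 0.27). Arg1, or arginase, had a log2 fold change of -0.30 (limma, adjusted p = 0.15). Among 14 measured genes of MHC class I presentation none passed over all genes. The groups did not overlap for 1 of them higher and 4 lower, or 35.7%, against 16.9% of all genes. The smallest p-values were those of Calr, Tap1 and Erap1, with log2 fold changes of -0.16, -0.13 and -0.13, and the list as a whole ranged from -0.16 to 0.23, with 6 genes higher and 8 lower. Calr passed with an intensity trend (adjusted p = 0.013) but not with any 1 array left out (limma, adjusted p 0.43 to 0.60).

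**Figure D3:**
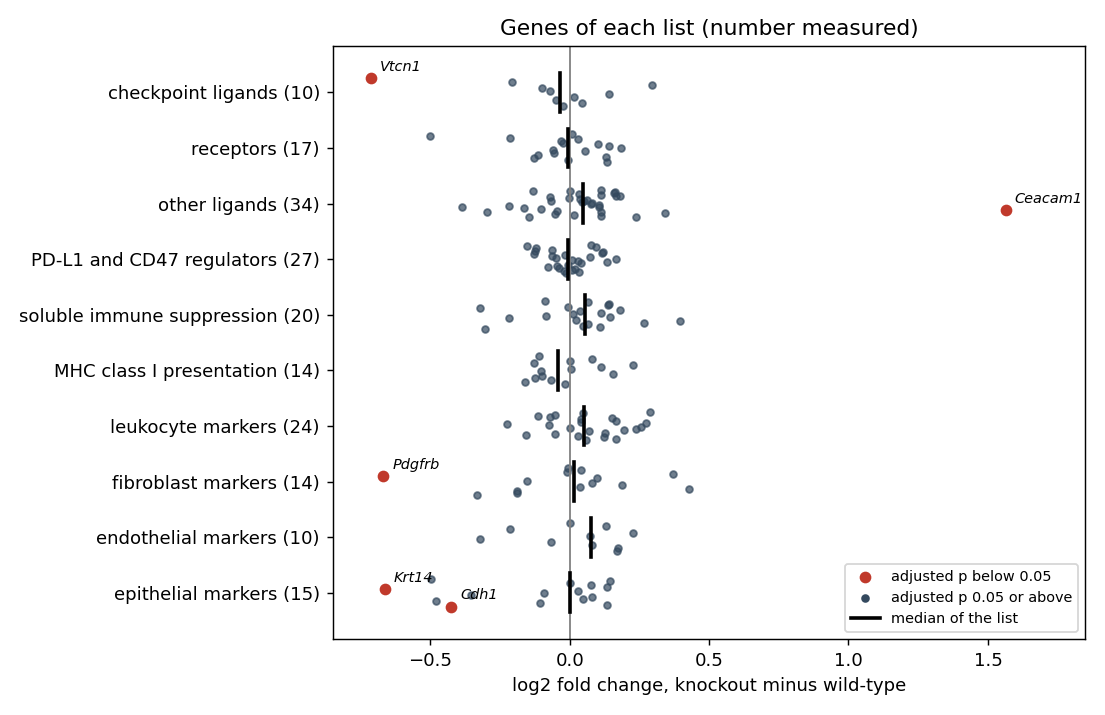
Log2 fold change, knockout minus wild-type (horizontal axis), of every measured gene in 10 lists (rows, with the number measured), from 3 knockout and 3 wild-type arrays. Red points passed the adjusted threshold of 0.05 and are named, dark points did not, and black bars are list medians. Vtcn1 is the red point of the checkpoint ligands at -0.71, Ceacam1 that of the other ligands at 1.56, and the list medians lie between -0.04 and 0.08.

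Marker lists of epithelial cells and of other cell types were tested in the same fit. In bulk RNA, fewer cells of a type and less RNA per cell cannot be told apart. The labels name no cell type beyond the NeuNDL origin, and the keratin Krt8, a simple epithelial marker, averaged 10.47 ± 0.03 in knockout cells and 10.32 ± 0.02 in wild-type cells (SD, n = 3 each). Of 15 measured epithelial markers 2 fell and none rose, against 0.437% called among all genes. The means of 8 were higher and of 7 lower in knockout cells. The list median was 0.0019 on the log2 scale. The groups did not overlap for 4 markers higher and 5 lower, or 60% of the list. Among all genes the share was 16.9%, with 8.79% higher and 8.1% lower. Krt14, the basal keratin, fell by 0.66 on the log2 scale (limma, adjusted p = 0.0096), and Cdh1, or E-cadherin, fell by 0.43 (0.022). Epcam read 7.31, 7.29 and 7.39 on the knockout arrays, against 7.68, 7.75 and 7.62 on the wild-type arrays (log2 -0.35, limma adjusted p = 0.083), and passed without the dimmest 30% of genes (0.036) and with an intensity trend (0.0028). Krt8 also passed with the trend (0.025). With any 1 array left out neither passed (limma, adjusted p 0.17 to 0.27 for Epcam and 0.42 to 0.61 for Krt8). Averaged over the list, the epithelial value was 6.47 to 6.50 on the knockout arrays and 6.60 to 6.63 on the wild-type arrays. Log2 fold changes in the list ran from -0.66 to 0.15, so the falls were larger than the rises. After Krt14 the largest falls were those of Rab25 (-0.50) and Cldn7 (-0.48), which did not pass (limma, adjusted p = 0.088 and 0.11). The part of these markers in the Vtcn1 difference was not tested. Cdh1 lost its call whichever array was left out (adjusted p 0.098 to 0.13) and as the mean of its probe sets (log2 -0.27, adjusted p = 0.45). Krt14 lost its call with the omission of any array but wild-type 1 (0.050 to 0.073). With the replicate number as a block both lost their calls (limma, adjusted p = 0.19 for Cdh1 and 0.11 for Krt14).

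None of 24 measured leukocyte markers passed over all genes, and 20 of them were dim. Cd14, Cd68, Ciita and Nkg7 were not. Cd14 averaged 8.19 in knockout cells and 8.03 in wild-type cells, with groups that did not overlap (limma, adjusted p = 0.55). Cd68 averaged 7.10 and 7.15, and its groups overlapped (limma, adjusted p = 0.82). The groups did not overlap for 4 markers higher and none lower, or 16.7% of the list. Among all genes the shares were 8.79% higher and 8.1% lower. The averaged value of the 24 markers was 3.67 to 3.77 on the knockout arrays and 3.58 to 3.74 on the wild-type arrays, ranges that overlapped. The smallest p-values were those of Tyrobp, H2-Ab1 and Fcer1g, with log2 fold changes of 0.29, 0.27 and 0.26 and limma adjusted p of 0.36, 0.45 and 0.45. The means of 17 leukocyte markers were higher and of 7 lower in knockout cells, H2-Aa (log2 -0.22) among the lower. Of 14 fibroblast markers 1 fell, Pdgfrb, and none rose, again against 0.437% of all genes. The log2 fold change of Dcn was 0.43 and that of Postn 0.37 (limma, adjusted p = 0.10 and 0.11), and both passed with an intensity trend (0.0081 and 0.0075). With any 1 array left out neither passed (limma, adjusted p 0.19 to 0.29 for Dcn and 0.19 to 0.33 for Postn). Col1a1, Col1a2 and Col3a1 went the other way, with log2 fold changes of -0.33, -0.19 and -0.19 (limma, adjusted p = 0.24, 0.30 and 0.38). The groups did not overlap for 5 fibroblast markers higher and 4 lower, or 64.3% of the list, against 16.9% of all genes. The averaged fibroblast value, which takes in changes in both directions, was 6.71 to 6.77 on the knockout arrays and 6.73 to 6.77 on the wild-type arrays. None of 10 endothelial markers passed, 8 of them were dim, and the smallest p-values were those of Robo4, Tek and Cldn5, with log2 fold changes of 0.23, -0.22 and 0.17. The averaged endothelial value was 3.66 to 3.69 on the knockout arrays and 3.60 to 3.70 on the wild-type arrays. The groups did not overlap for 1 endothelial marker higher and 2 lower, or 30% of the list, against 16.9% of all genes.

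Genes that followed Vtcn1 most closely were sought among 94 of the called genes by Pearson's r over the 6 arrays. These genes share the difference between the groups that selected them, so r is a description. Of the 97 called genes, 72 were higher in knockout cells and so ran against Vtcn1. A high r was therefore open only to the 25 called lower, Vtcn1 itself among them. The 5 with the highest r were Angpt1 (0.993), an angiopoietin, Esyt3 (0.992), an extended synaptotagmin, Adgrl2 (0.991), an adhesion G protein-coupled receptor, Bmp4 (0.986), a bone morphogenetic protein, and Pdgfrb (0.983), a platelet-derived growth factor receptor. Adgrl2 read 6.79, 7.06 and 6.81 on the knockout arrays, against 7.93, 7.74 and 7.69 on the wild-type arrays, with its highest knockout value on array 2, where Vtcn1 had its own. Bmp4 read 6.25, 6.34 and 6.17 on the knockout arrays, against 6.76, 6.83 and 6.75 on the wild-type arrays. The log2 fold changes of the 5 lay between -0.90 and -0.53, beside -0.71 for Vtcn1. Esyt3, Angpt1 and Bmp4 lost their calls whichever array was left out, with adjusted p up to 0.13 for Esyt3 and 0.14 for Angpt1 and Bmp4. Adgrl2 lost its call without any array but knockout 2 (up to 0.13), and Pdgfrb without wild-type 2 (0.050). With the replicate number as a block all 5 lost their calls (limma, adjusted p from 0.11 for Pdgfrb to 0.16 for Adgrl2). As the mean of all its probe sets, Angpt1 changed by a log2 value of -0.33 (adjusted p = 0.096).

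**Figure D4:**
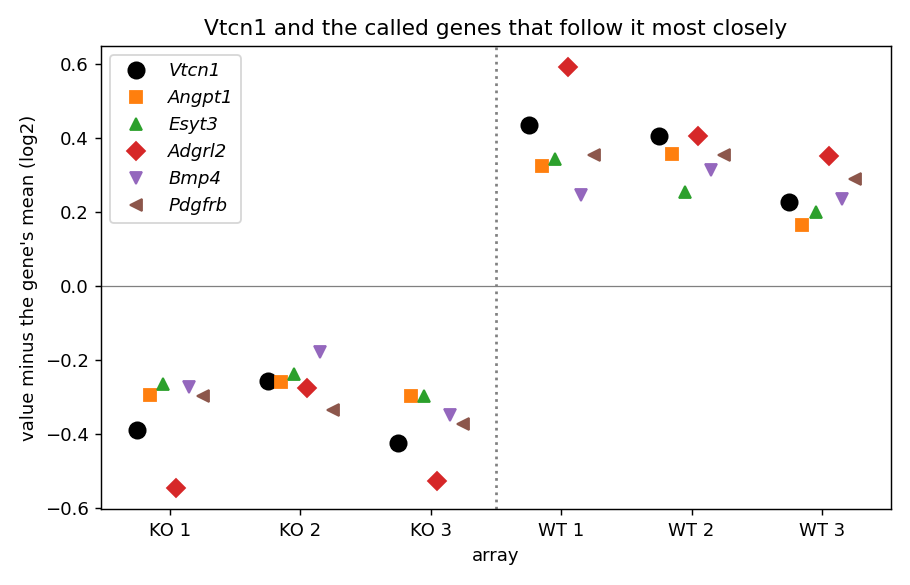
Deposited log2 value minus the gene's own mean over the 6 arrays (vertical axis) for Vtcn1 (large black circles) and the 5 called genes with the highest Pearson's r with it, on knockout (KO) arrays 1 to 3 and wild-type (WT) arrays 1 to 3. All 6 genes lie below their mean on every knockout array and above it on every wild-type array, and all but Pdgfrb have their highest knockout value on array 2.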

How the data were processed

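Per the submitters' processing notes, the authors made the deposited log2 values with Affymetrix Expression Console 1.4.1.46. How background, normalization and summarisation were handled is not stated in those notes or the labels, nor is the log base, which was taken as 2 from the highest value of 12.4. Such values can compress fold changes of dim genes, which was not measured here. Of 41345 probe sets, 23521 had 1 symbol in the platform's annotation, 1814 had several and 16010 were not listed. For each symbol the probe set with the highest mean over the 6 arrays was kept, which gave 22180 genes. All 10 members had exactly 1 probe set.

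Samples were grouped by title. The comparison of the genotypes used lmFit and eBayes of limma 3.58.1 under R 4.3.3 (two-sided, no covariate, no filter), with Benjamini-Hochberg adjustment over all genes and a threshold of 0.05. Intervals are 95% and use limma's moderated standard errors. An exact permutation test of 3 against 3 arrays cannot go below 0.1 and was not used. The fit was tested on simulated data. The members, the lists and the naming rule were chosen with earlier results of these data known. The rule took Slk, the members, the 3 genes of each list with the smallest p, all list genes past the threshold, Ptprc, Epcam, Krt8 and the 5 called genes most like Vtcn1. Promoters are RefSeq's on GRCm38.p6, found for 8 of 10 members, of which the bases before the start were read. The files name no build.

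The alternatives were median centring, quantile normalization, omission of the dimmest 30% of genes, a gene's mean over its probe sets, each probe set tested singly, array weights, a variance trend on intensity (plain or robust), a replicate block and the omission of each array.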

Additional observations from a re-analysis of the deposited data

How the results depend on the processing

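Under the 15 alternatives Vtcn1 kept its direction, with log2 fold changes from -0.78 to -0.67 and adjusted p from 0.00020 to 0.13. It lost its call in 7 of them, the 6 that leave out 1 array and the replicate block (log2 -0.71, adjusted p = 0.12). No other member passed the threshold under any alternative (adjusted p of 0.085 or more). With 1 array left out the sign changed for Cd274 (log2 -0.049 without knockout 1 and -0.0078 without wild-type 3, range to 0.16), for Cd276 (0.033 without knockout 3, range from -0.10), for Cd86 (0.013 without knockout 2 and 0.043 without wild-type 2, range from -0.16), for Cd47 (-0.0075 without knockout 1, -0.0050 without knockout 3 and -0.0061 without wild-type 1, range to 0.059) and for Ptprc (0.015 without knockout 1 and 0.00066 without wild-type 2, range from -0.12).

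From 72 genes higher and 25 lower, the counts became 143 and 63 without the dimmest 30% of genes, 265 and 176 with an intensity trend, 264 and 179 with a robust trend, and 5 and 1 with the replicate block. With 1 array left out, 13 to 24 genes were higher and 2 to 5 lower. Fewer samples enter those fits, and for the others the cause was not tested. The titles number replicates 1 to 3 in both groups, but no label says that equal numbers were paired, so the main fit did not pair them. Deviations of same-numbered arrays from their group means correlated at 0.04, 0.02 and -0.07 over genes. Such a correlation cannot exclude pairing that affects part of the genes. Of 505 values for the 34 other named genes, 2 changed sign, both for Ptprc. Probe sets for the dim members Cd86 and Icosl lie near the low end of the scale, where differences can be compressed. Pdcd1lg2 was also dim but exceeded at least 31.7% of probe sets on every array.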
